A study of Rattus norvegicus with 192 samples.

Results

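The translation initiation factor genes are those whose symbols run from Eif1 to Eif6, followed only by lower-case letters and digits. The Y-linked Eif2s3y was left out. There were 58 such genes among the 38354 of the deposited table, and 56 of them had a mean of at least 1 CPM (counts scaled to a library total of 1000000) and were tested with 15327 genes in all. The symbols also take in regulators of initiation (kinases of eIF2, repressors of eIF4E), eIF5A, which is known mainly from elongation, and 5 gene copies named after a factor. Eif1l1 and Eif5bl, both gene copies, were the members below 1 CPM. Eif1l1 was highest at 0.0594 CPM and Eif5bl at 0.604 CPM, and neither is discussed further.

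PolyA RNA of the nucleus accumbens core was sequenced from outbred laboratory rats, and the labels give no treatment, genotype, sex, age or batch. Libraries were grouped by the form of the rat identifier. The corrected E21 group has 12 libraries whose identifier the submitters replaced after comparison with genotypes, the E21 group has 76 with an identifier that begins with E21, and the numeric group has 56 with an identifier of digits only. The 2 libraries with an AA1 identifier and the 1 corrected to another form entered the measures of spread alone.

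Initiation in eukaryotes begins when eIF2, bound to GTP and the initiator tRNA, joins the small ribosomal subunit with eIF1, eIF1A, eIF3 and eIF5. The eIF4 proteins bring the mRNA to it: eIF4E binds the cap, eIF4G is the scaffold and eIF4A is the helicase that opens structure in the leader. Kinases that phosphorylate eIF2 alpha block its recycling by eIF2B and lower initiation, and 4E-BP proteins do so by occupying eIF4E. In neurons, local initiation at synapses is a known requirement of lasting plasticity.

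Start-site windows are shown for 6 members on which the results turn: Eif3b for its small spread, Eif4g1 and Eif4g3 because they moved together, and Eif3f, Eif3k and Eif5a because they ran opposite to Eif3a. The sequences are from RefSeq promoters of the rat assembly GRCr8 and run 5′ to 3′ from 120 bases before the annotated start. Capitals mark matches on either strand to 4 motifs: TATAAA of the TATA box, CCGGAAG of the sites bound by ETS factors, GGGCGG of the GC box, and CCAAT. In these windows no match overlapped another.
Eif3b, chr12:19334739-19334888, minus strand: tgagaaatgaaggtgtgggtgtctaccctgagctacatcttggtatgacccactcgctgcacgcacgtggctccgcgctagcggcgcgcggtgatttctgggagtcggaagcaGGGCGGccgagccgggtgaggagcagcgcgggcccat
Eif4g1, chr11:93746338-93746487, minus strand: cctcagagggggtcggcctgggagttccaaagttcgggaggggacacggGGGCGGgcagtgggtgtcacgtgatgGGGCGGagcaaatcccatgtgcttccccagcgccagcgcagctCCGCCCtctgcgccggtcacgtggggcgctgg
Eif4g3, chr5:155481258-155481407, plus strand: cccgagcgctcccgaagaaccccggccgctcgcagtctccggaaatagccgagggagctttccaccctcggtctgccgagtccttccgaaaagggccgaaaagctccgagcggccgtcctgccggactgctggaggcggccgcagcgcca
Eif3f, chr1:172368942-172369091, plus strand: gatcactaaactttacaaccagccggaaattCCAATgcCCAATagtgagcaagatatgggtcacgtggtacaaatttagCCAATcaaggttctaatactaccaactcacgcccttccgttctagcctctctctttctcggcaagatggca
Eif3k, chr1:93397458-93397607, minus strand: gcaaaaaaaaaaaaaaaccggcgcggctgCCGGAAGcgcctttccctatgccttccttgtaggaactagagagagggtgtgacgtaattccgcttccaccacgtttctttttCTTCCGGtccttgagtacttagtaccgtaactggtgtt
Eif5a, chr10:55143192-55143341, minus strand: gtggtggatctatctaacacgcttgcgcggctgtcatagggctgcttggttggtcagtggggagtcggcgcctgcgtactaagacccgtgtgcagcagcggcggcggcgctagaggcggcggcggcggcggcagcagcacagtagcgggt
The GC box was present in the Eif3b window once and in the Eif4g1 window 3 times. Eif3f held CCAAT 3 times, Eif3k held the ETS core 2 times, and Eif4g3 and Eif5a held none of the 4 motifs. Windows whose start lay within 100 bases of the deposited position were found for 36 of the 58 members, and Eif3a had none. The ETS core was in 27.8% of the 36 member windows and in 12.6% of the 8250 windows of other tested genes. The GC box was in 19 of 36 member windows and in 3957 of 8250 other windows. CCAAT was in 22.2% of member windows and in 25.6% of other windows. TATAAA was in 0 of 36 member windows and in 4.2% of the others. These are matches of letters only.

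The 147 libraries used had 14.6 to 61.2 M expected counts (M standing for 1000000) and Drd1, the D1 dopamine receptor of medium spiny neurons, between 154 and 441 CPM. Another 12 libraries of the table had Drd1 of at most 20.0 CPM, against the striatal label, and were left out. Of these, 11 had a numeric identifier and 1 an E21 identifier, out of 67 numeric and 77 E21 libraries in the table. Mean totals were 24.1 ± 3.86 M in the corrected E21 group (SD, n = 12), 22.3 ± 4.93 M in the E21 group (SD, n = 76) and 28.6 ± 9.12 M in the numeric group (SD, n = 56). E21 library 5 stood apart, with a mean correlation to the other libraries of 0.926, where the next lowest library had 0.952. It held the lowest value of 24 of the 56 tested members, and no other library held the lowest value of more than 3. E21 library 20 carried Xist at 309 CPM together with Eif2s3y at 21.4 CPM, transcripts that no other library held together at such levels. In bulk tissue, fewer cells of a type and less RNA per cell cannot be told apart.

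Initiation factor genes tended to vary less between rats than other genes of their level. The SD of log2(CPM + 1) over the 147 libraries had a median of 0.169 for the members and 0.237 for all tested genes. Since spread depends on level, each SD was ranked among the 200 other genes nearest in mean level. The median member lay at percentile 32.5 of this ranking, 38 of 56 lay below percentile 50, and 12 lay at or below percentile 10, where 10% of matched genes lie by construction. No test was made of these ranks. Just inside this limit were Eif4g2 (percentile 10.0) and Eif4b (9.5), and just outside it Eif2b1 (11.0) and Eif2s1 (12.0). Without E21 library 5 the count at or below percentile 10 was also 12.

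**Figure D1:**
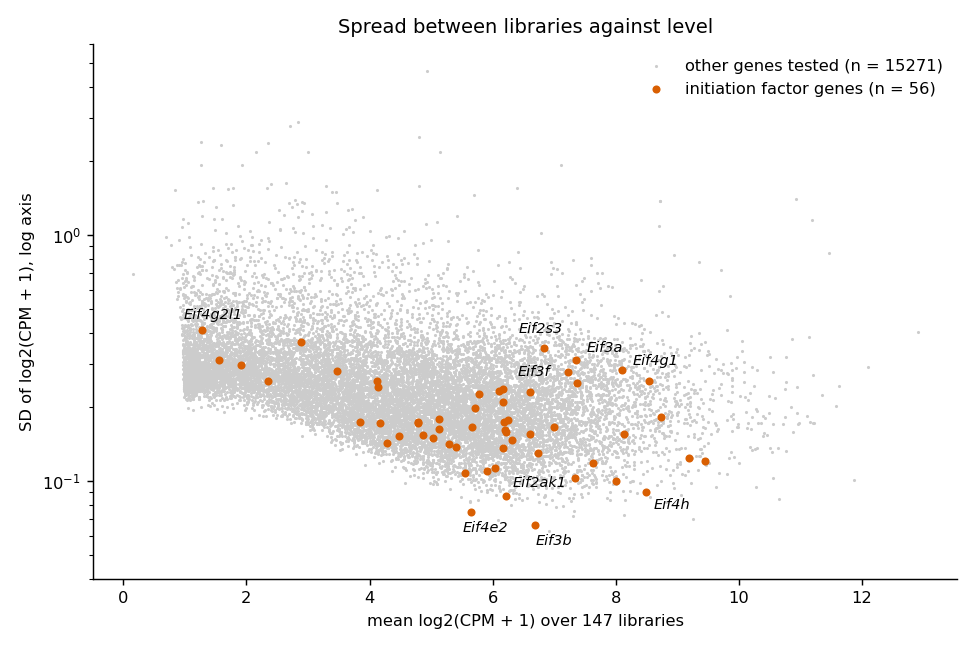
The SD of log2(CPM + 1) over 147 libraries (log axis) is plotted against the mean of log2(CPM + 1), with 1 point per tested gene and the 56 members in orange. Eif3b lies at the lower edge of the cloud with an SD of 0.066, and Eif2s3 and Eif3a lie in its upper part with SDs of 0.349 and 0.312.

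Eif3b, a core subunit of eIF3, had the smallest SD of all members at 0.066. Its lowest, median and highest levels over the 147 libraries were 88.4, 103 and 115 CPM, so that no rat differed from another by more than 1.30-fold. Eif4e2, the cap-binding protein that competes with eIF4E as a repressor, lay between 43.2 and 55.9 CPM with an SD of 0.075. The kinase Eif2ak1 (HRI, which responds to heme shortage) lay between 63.3 and 86.4 CPM with an SD of 0.087. It shared the narrow range with Eif4h, a cofactor of the eIF4A helicase (309 to 435 CPM, SD 0.090), and with Eif4enif1, the transporter that carries eIF4E into the nucleus (37.0 to 53.3 CPM, SD 0.108). These 5 members had the lowest ranks against genes of like level.

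By role, the helicases and their cofactors were the steadiest group. Eif4a1, Eif4a2, Eif4a3, Eif4b and Eif4h had percentiles from 1.0 to 13.0, with a median of 7.0. The cap-binding proteins had a median percentile of 17.5, and Eif4e, the main one, lay between 85.2 and 128 CPM. The 5 subunits of eIF2B, the exchange factor that reloads eIF2 with GTP, had a median percentile of 20.0 and a range from 4.5 to 41.0. The eIF4G scaffolds were split: Eif4g2, which lacks the eIF4E binding site, was at percentile 10.0, whereas Eif4g1 was at 75.5. Within eIF3 the ranks ran from 0.0 for Eif3b to 85.0 for Eif3a, and both genes encode subunits of a single complex.

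The highest ranks were those of Eif2s3 (percentile 92.0), Eif3a (85.0), Eif3f (82.5), the gene copy Eif4g2l1 (78.5) and Eif4g1 (75.5). For Eif3a and Eif4g1 this spread was a feature of the E21 libraries. Eif3a, the largest eIF3 subunit, was at percentile 84.5 among the E21 libraries and at 27.0 among the numeric ones, with SDs of 0.37 and 0.11. Eif4g1 was at percentile 81.0 in the E21 group and 27.5 in the numeric group, with SDs of 0.33 and 0.12. The libraries of other identifier forms lay near or below the lowest numeric values, 146 CPM of Eif3a and 244 of Eif4g1. Eif3a was at 94.55 CPM in the library corrected to another form and at 141 and 146 CPM in the AA1 libraries. Eif4g1 was at 187, 235 and 246 CPM in the same order. A larger SD in the E21 group was general, since it held for 51 of 56 members (91.1%) and for 87.0% of all tested genes. The median ratio of the SD in E21 libraries to that in numeric libraries was 1.39 over the members and 1.31 over all tested genes. Among the members the ratio was highest for Eif3a (3.34), Eif4g1 (2.88), Eif1b (2.70), Eif1 (2.46) and Eif4g3 (2.41). These differences in spread were not tested.

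The E21 and numeric forms of identifier divide the original libraries, and their comparison asks whether initiation factor genes differed along that division. Of the 56 tested members, 25 passed an adjusted p of 0.05 in limma. In the E21 libraries 11 were higher (19.6%), where 12.3% of all tested genes were higher, and 14 were lower (25.0%), where 26.6% of all tested genes were lower. The share of lower members was near the background. The differences were small, between 0.04 and 0.26 on the log2 scale, and 3 reached 0.2: those of Eif3a, Eif4g1 and Eif4g3. Where libraries were scaled by the median of ratios, 16 members were higher (background 19.1% of all tested genes) and 12 lower (background 18.6%), so that 57.1% of the calls were higher, against 44.0% with scaling by total. Over all tested genes the share of higher calls was 50.7% with the median of ratios, against 31.6% with scaling by total. With quantile normalization 14 members were higher (background 20.7%) and 11 lower (background 18.1%).

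**Figure D2:**
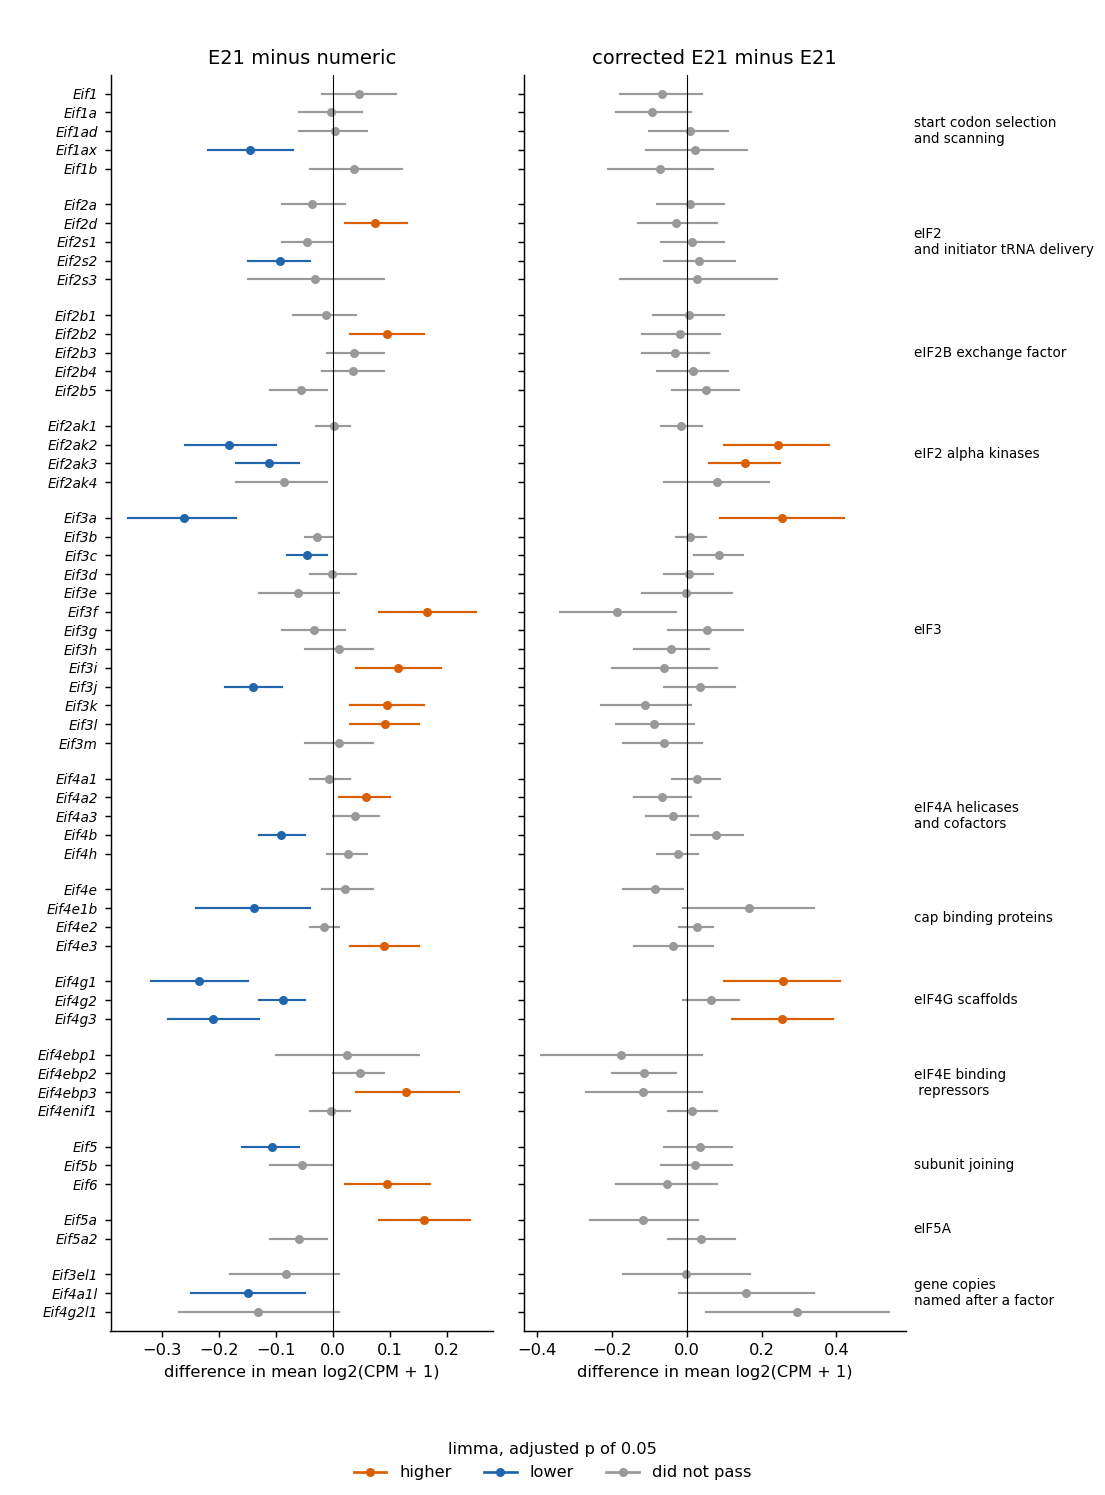
Differences in mean log2(CPM + 1) are shown for the 56 tested members, grouped by role, with E21 minus numeric in the left panel and corrected E21 minus E21 in the right panel. Points are limma estimates and lines their 95% intervals. The 3 eIF4G scaffolds lie left of 0 in the left panel, and Eif4g1 and Eif4g3 lie right of 0 in the right panel.

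All 3 scaffold genes were lower in the E21 libraries, also under both other scalings. The lowest, median and highest levels of Eif4g1 were 136, 287 and 341 CPM in the 76 E21 libraries, against 244, 306 and 345 CPM in the 56 numeric libraries. For Eif4g3 they were 97.1, 171 and 198 CPM in E21 libraries, against 135, 181 and 207 CPM in numeric libraries. The highest values of the groups were close together and the groups overlapped, while the low end of the E21 libraries reached far below that of the numeric ones. The log2 difference was -0.24 for Eif4g1 (SE 0.045, limma adjusted p = 1.18e-05) and -0.21 for Eif4g3 (SE 0.039, limma adjusted p = 8.85e-06). Eif4g2 differed by -0.09 (SE 0.020, limma adjusted p = 2.92e-04), and by -0.06 with the median of ratios.

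The subunits of eIF3 moved both ways, with 4 of 13 higher, 3 lower and 6 not past the threshold. Eif3a had 74.4, 161 and 222 CPM as its lowest, median and highest levels in E21 libraries, against 146, 180.1 and 217 CPM in numeric libraries. Its log2 difference was -0.26 (SE 0.049, limma adjusted p = 8.95e-06), the largest in size among the members called. Eif3f, a subunit with an MPN domain, ran the other way with 111, 146 and 257 CPM in E21 libraries, against 115, 137 and 195 CPM in numeric libraries. Here it was the upper end of the E21 libraries that extended beyond the numeric range, and the log2 difference was 0.16 (SE 0.046, limma adjusted p = 0.00249). Eif3i, Eif3k and Eif3l were also higher, by 0.11, 0.09 and 0.09, and Eif3j, the loosely attached subunit, was lower, with a log2 difference of -0.14. Eif3c, a core subunit, was lower too, with a log2 difference of -0.04 (SE 0.018, limma adjusted p = 0.0388). That call ended with the median of ratios (-0.01, adjusted p = 0.584 in limma), with quantile normalization (-0.02, adjusted p = 0.259 in limma) and without E21 library 5 (adjusted p = 0.0562 in limma). It also ended with no filter on low values, with all labelled libraries and with library weights. A covariate of cortical markers or of total count ended it as well. The limma adjusted p in these further settings lay between 0.0581 and 0.151. Eif3b had a log2 difference of -0.03 and did not pass (limma adjusted p = 0.0571).

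**Figure D3:**
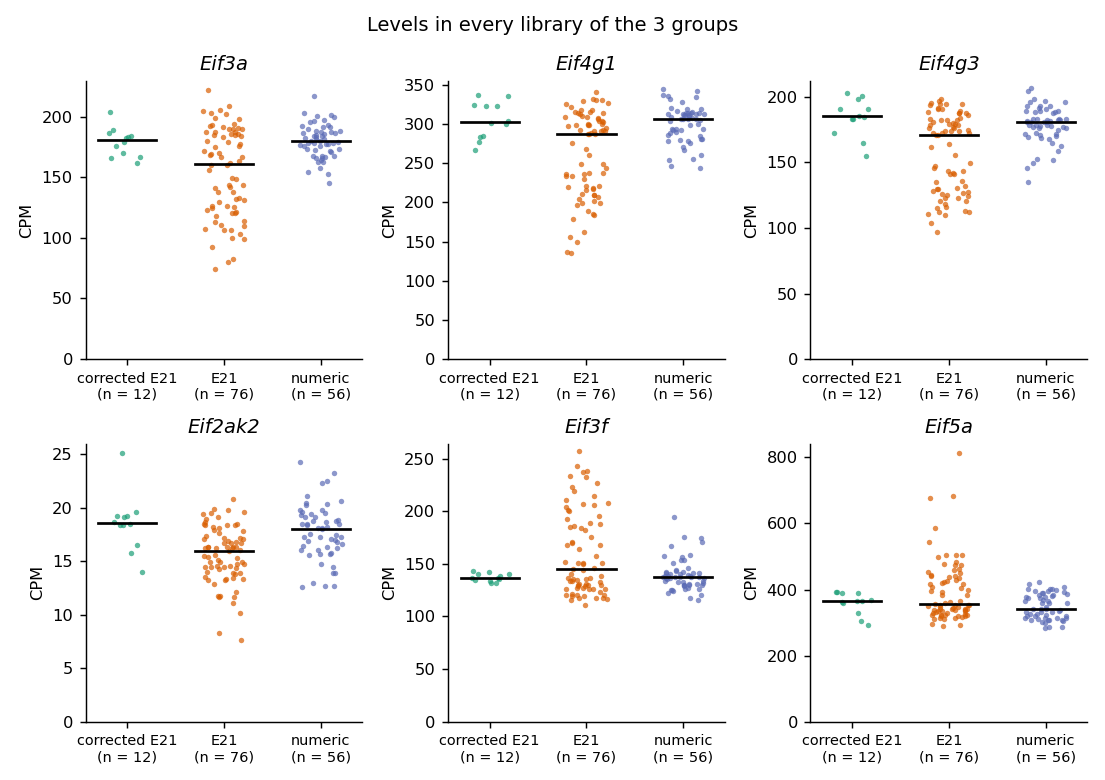
Levels in CPM of 6 members are shown for every library of the corrected E21, E21 and numeric groups, with the median as a black line. E21 libraries extend down to 74.4 CPM of Eif3a and up to 814 CPM of Eif5a, where no corrected E21 or numeric library lies.

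Among the kinases of eIF2 alpha, Eif2ak2 and Eif2ak3 were lower in the E21 libraries, and Eif2ak1 and Eif2ak4 did not pass. Eif2ak2 (PKR, which binds double-stranded RNA) had 7.64, 16.0 and 20.8 CPM as its lowest, median and highest levels in E21 libraries, against 12.6, 18.0 and 24.2 CPM in numeric libraries. The ranges overlapped over most of their length, and the log2 difference was -0.18 (SE 0.040, limma adjusted p = 1.56e-04). Eif2ak3 (PERK, the kinase of the endoplasmic reticulum) differed by -0.11 (SE 0.028, limma adjusted p = 8.93e-04). Of the eIF2 group, Eif2s2, the beta subunit, was lower (log2 difference -0.09) and Eif2d, which can deliver tRNA without GTP, was higher by 0.07. Of eIF2B, Eif2b2 alone passed, higher by 0.10, out of 5 subunits.

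Eif5a, whose product carries the modified amino acid hypusine, had 289, 358 and 814 CPM in E21 libraries, against 283, 341 and 422 CPM in numeric libraries. Its medians lay close together and the difference was in the upper values. The log2 difference was 0.16 (SE 0.042, limma adjusted p = 0.00154), and its paralogue Eif5a2 differed by -0.06 (limma adjusted p = 0.0583). Eif1ax, encoding the scanning factor eIF1A, was lower (log2 difference -0.15, limma adjusted p = 0.00134). Eif5, the GTPase activator of eIF2, was lower (log2 difference -0.11, limma adjusted p = 4.61e-04), and Eif6, which keeps free large subunits from joining, was higher by 0.09 (limma adjusted p = 0.0433). Eif4b was lower (log2 difference -0.09), Eif4a2 was higher by 0.06 and Eif4e3, a further cap-binding protein, by 0.09. Among members below 10 CPM, Eif4ebp3, a 4E-BP repressor, was higher by 0.13, and Eif4e1b, an eIF4E relative, and the gene copy Eif4a1l were lower, with log2 differences of -0.14 and -0.15. Eif4a1l can share reads with Eif4a1, so its level is uncertain.

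Many of these calls changed with how libraries were weighted and with depth. With library weights estimated by limma, an alternative chosen after the data were seen, 1 member was higher (background 10.1% of all tested genes) and 15 were lower (background 18.7%), and 11 of the 25 original calls were kept. Eif3a, Eif4g1 and Eif4g3 kept their calls with weights but at -0.10 each, while Eif3f had 0.02 (adjusted p = 0.667 in limma) and Eif5a 0.07 (adjusted p = 0.0986 in limma). With the log2 total count as a covariate, 3 members were higher (background 5.49%) and 12 lower (background 16.0%), and 12 of the 25 calls were kept, among them those of Eif3a, Eif3f, Eif4g1, Eif4g3 and Eif5a. With a ribosomal protein score as a covariate, also added after the data were seen, 11 were higher (background 14.8%) and 17 lower (background 30.5%), and all 25 calls were kept. Markers of cortical glutamatergic neurons moved with the groups: 7 of 8 were lower in the E21 libraries, their summed level ranged from 26.3 to 1486 CPM in E21 libraries (median 149) and from 42.5 to 1314 CPM in numeric libraries (median 360.4), and none was at 0 in every library. With the cortical score as a covariate, 21 of the 25 calls were kept, and Eif4e1b had a log2 difference of 0.004. Of 12 medium spiny neuron markers, 6 were higher in the E21 libraries, and their part in the results was not tested.

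The corrected E21 libraries were set against the E21 libraries to see whether libraries with a corrected identifier differed. In the corrected libraries 5 members were higher, or 8.93% of those tested, where 9.34% of all tested genes were higher, and 0 were lower, where 3.20% of all tested genes were lower. There were 11 members with an unadjusted p under 0.05 in limma, and the share called was near the background. Scaled by the median of ratios, 4 were higher (background 6.66%) and 2 lower (background 5.85%), and with quantile normalization 4 were higher (background 7.03%) and 1 lower (background 6.24%).

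The members called were Eif4g1, Eif4g3, Eif3a, Eif2ak2 and Eif2ak3. Eif4g3 had 155, 185 and 203 CPM as its lowest, median and highest levels in the 12 corrected libraries, against 97.1, 171 and 198 CPM in the 76 E21 libraries. Eif3a had 162, 180.2 and 204 CPM in corrected libraries, against 74.4, 161 and 222 CPM in E21 libraries. No corrected library reached down into the lower part of the E21 range for either gene, and the highest Eif4g3 value of these groups was that of a corrected library. The log2 differences were 0.25 for Eif4g3 (SE 0.069, limma adjusted p = 0.00734), 0.26 for Eif4g1 (SE 0.079, limma adjusted p = 0.0188) and 0.25 for Eif3a (SE 0.086, limma adjusted p = 0.0365). For Eif2ak2 the difference was 0.24 (SE 0.071, limma adjusted p = 0.0136), with 14.0, 18.6 and 25.1 CPM in corrected libraries against 7.64, 16.0 and 20.8 CPM in E21 libraries. Eif2ak3 differed by 0.16 (SE 0.050, limma adjusted p = 0.0268). Eif3f had 132, 137 and 143 CPM in the corrected libraries, a narrow range inside the 111 to 257 CPM of the E21 libraries, and did not pass (log2 difference -0.19, limma adjusted p = 0.113). The fit assumes a shared spread across groups, whereas the SD of Eif3f was 0.04 in corrected libraries and 0.34 in E21 libraries.

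Both comparisons use the same E21 libraries, so their opposite signs are not separate evidence. With library weights 7 members were higher in the corrected libraries (background 14.9%) and 2 lower (background 9.22%), and Eif3a no longer passed (0.08, adjusted p = 0.329 in limma), while Eif4g1 had 0.13 and Eif4g3 0.15. Eif3a also missed the threshold with the median of ratios (adjusted p = 0.0554 in limma) and with the log2 total count as a covariate (adjusted p = 0.0536 in limma). Cortical markers moved with this comparison as well: 7 of 8 were higher in the corrected libraries, with sums from 47.97 to 1009.7 CPM (median 637) in corrected libraries and from 26.3 to 1486 CPM (median 149) in E21 libraries. With the cortical score as a covariate all 5 calls were kept. With cortical, oligodendrocyte and astrocyte scores 3 of 5 were kept, and Eif4g1 (adjusted p = 0.0552 in limma) and Eif2ak3 (adjusted p = 0.0923 in limma) did not pass. The corrected libraries had all carried identifiers of a numbered series before, so that series and the correction cannot be told apart.

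Several members moved with Eif3a from library to library. Pairs chosen after their values were seen gave Pearson's r of 0.90 for Eif3a with Eif4g1 in 76 E21 libraries (Spearman's rho 0.77) and 0.52 in 56 numeric libraries (rho 0.44). For Eif3a with Eif3f, r was -0.91 in E21 libraries (rho -0.88) and -0.73 in numeric libraries (rho -0.64). For Eif3a with Eif5a, r was -0.93 in E21 libraries (rho -0.86) and -0.39 in numeric libraries (rho -0.38). In both groups, and most closely in the E21 group, rats with little Eif3a thus tended to have little Eif4g1 and much Eif3f and Eif5a. Permutation p-values for r, adjusted over the 14 correlations of this family and on both sides, were 1.56e-05 for each of these pairs in the E21 group, and 7.00e-05, 1.56e-05 and 0.00292 in the numeric group. The raw p was 1e-05 in the E21 group, the smallest that 100000 resamples can give. The adjustment does not cover the member pairs from which these were chosen, so the p-values describe these pairs and do not test them. Without the 2 libraries farthest from the median of Eif3a, r was 0.88, -0.92 and -0.92 in the E21 group and 0.53, -0.65 and -0.36 in the numeric group. Eif3a values in the E21 group were not cleanly divided, since the widest gap between neighbours was 0.16 in a log2 range of 1.56.

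**Figure D4:**
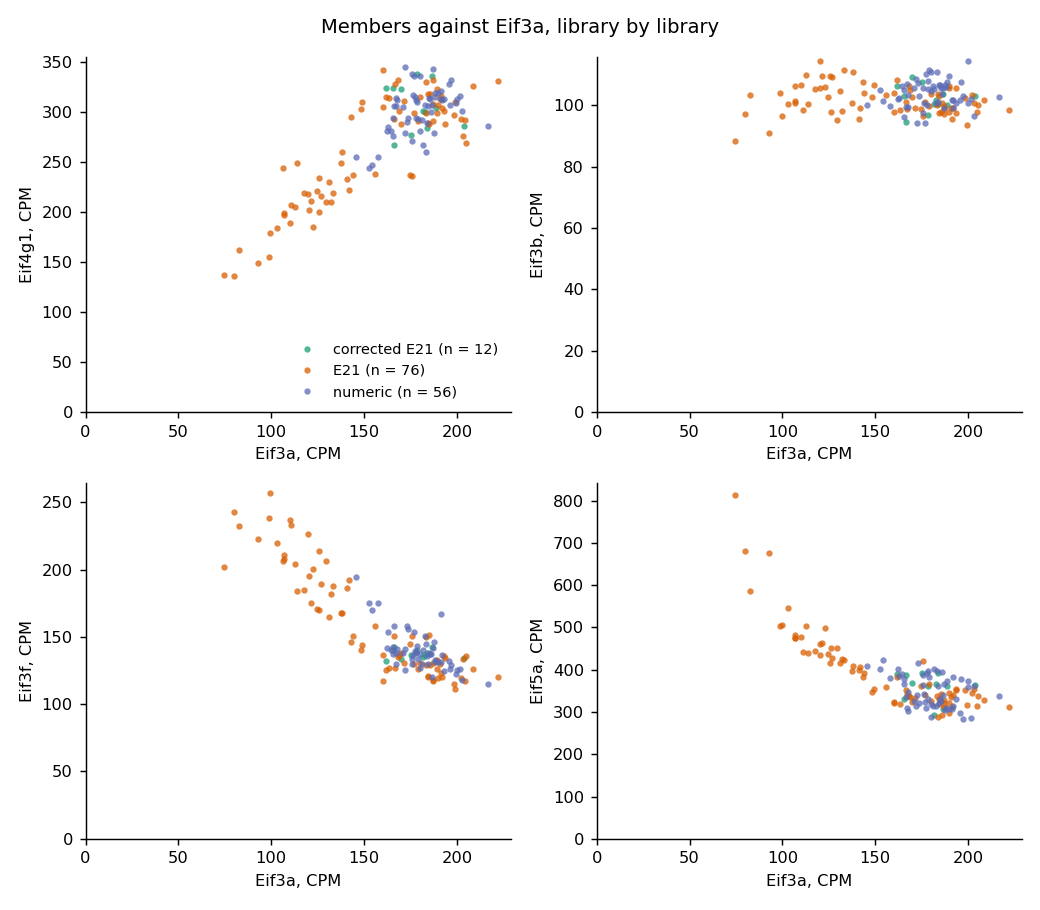
Each point is 1 library, with Eif3a in CPM on the x axis and Eif4g1, Eif3b, Eif3f or Eif5a in CPM on the y axis, colored by group. Corrected E21 and numeric libraries and many E21 libraries share a dense cloud, and the other E21 libraries trail from it toward low Eif3a, low Eif4g1, high Eif3f and high Eif5a. The 2 lowest values of Eif3b, 88.4 and 91.1 CPM, lie among the E21 libraries with low Eif3a.

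The correlation of Eif3b with Eif3a did not pass. Its r was -0.06 in E21 libraries (rho -0.20, permutation adjusted p = 0.608 for r) and 0.13 in numeric libraries (rho 0.12, permutation adjusted p = 0.382 for r). Without the 2 libraries farthest from the median of Eif3a, r was -0.24 in E21 libraries and 0.11 in numeric libraries. E21 library 5 was lowest in Eif3a at 74.4 CPM, with 137 CPM of Eif4g1, 202 of Eif3f, 814 of Eif5a and 88.4 of Eif3b. In E21 library 2 Eif3a was at 80.0 CPM, Eif4g1 at 136 CPM, Eif3f at 243 CPM, Eif5a at 682 CPM and Eif3b at 97.2 CPM. E21 library 27 had 82.8 CPM of Eif3a, 162 of Eif4g1, 232 of Eif3f, 586 of Eif5a and 103 of Eif3b. These were the 3 E21 libraries lowest in Eif3a. Eif3b was lowest of all 147 libraries in E21 library 5 and second lowest in E21 library 76, with 91.1 CPM at 92.6 CPM of Eif3a, whereas E21 library 27 was near the overall median of 103 CPM. In the numeric group the library lowest in Eif3a, number 5, had 146 CPM of it, 195 of Eif3f and 408 of Eif5a.

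Ribosomal protein genes moved with them, in pairs that were also chosen after their values were seen. The p-values of these pairs are adjusted over the 14 correlations of that family alone, not over the pairs they were chosen from. The summed level of 73 cytosolic ribosomal protein genes had an r with Eif3f of 0.85 in E21 libraries and 0.78 in numeric libraries, and with Eif3a of -0.70 in E21 libraries and -0.63 in numeric libraries (permutation adjusted p = 1.56e-05 for all 4). With Eif3b its r was -0.05 in E21 libraries and -0.02 in numeric libraries (permutation adjusted p = 0.731 and 0.881). The sum was 23548 CPM in E21 library 2 and 24478 CPM in numeric library 5, against medians of 15063 CPM in the E21 group and 15388 CPM in the numeric group. No measure of RNA integrity was in the labels, and its part in this pattern was not tested.

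A set of 12 pairs of partners or paralogues was listed with earlier results of these data known, and each was taken in both groups. Of the 24 correlations, 15 passed an adjusted permutation p of 0.05 for Pearson's r. Some of these did not pass for rho: Eif4g1 with Eif4g2 in E21 libraries (permutation adjusted p = 0.0505), Eif2ak3 with Eif2ak4 in numeric libraries (permutation adjusted p = 0.127), and Eif4e with Eif4ebp2 in numeric libraries. The scaffolds Eif4g1 and Eif4g3 had an r of 0.93 in E21 libraries (rho 0.91) and 0.76 in numeric libraries (rho 0.64). Eif1 and Eif1b, close copies that both encode a start codon fidelity factor, had 0.92 in E21 libraries (rho 0.91) and 0.48 in numeric libraries (rho 0.51), and reads may be shared between them. The helicases Eif4a1 and Eif4a2 had an r of 0.68 in both groups (rho 0.71 in E21 libraries and 0.64 in numeric libraries). Eif2s1 and Eif2s2, the alpha and beta subunits of eIF2, had 0.67 in E21 libraries (rho 0.72) and 0.57 in numeric libraries (rho 0.56). Eif3e and Eif3h had 0.61 in E21 libraries (rho 0.68) and 0.55 in numeric libraries (rho 0.43). The adjusted permutation p for r was 4.00e-04 or less for these 5 pairs in both groups, and r without the 2 farthest libraries stayed between 0.51 and 0.93. Eif4e and its repressor Eif4ebp2 had r of -0.16 in E21 libraries (permutation adjusted p = 0.206) and -0.31 in numeric libraries (permutation adjusted p = 0.0321), and r in the numeric group was -0.26 without the 2 farthest libraries. The rho of this pair in numeric libraries was -0.28 and did not pass (permutation adjusted p = 0.0641). Eif2b1 and Eif2b5, subunits of a single complex, had an r of 0.13 in E21 libraries (permutation adjusted p = 0.302) and 0.46 in numeric libraries (permutation adjusted p = 5.72e-04).

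Averaged over all pairs of the role, r was 0.56 in E21 libraries and 0.35 in numeric libraries for the eIF4G scaffolds, 0.28 in E21 libraries and 0.44 in numeric libraries for eIF2B, and 0.30 in E21 libraries and 0.18 in numeric libraries for eIF3. Other roles had means below 0. They were the eIF4E binding repressors with -0.08 in both groups, the subunit joining factors with -0.20 in E21 libraries and -0.05 in numeric libraries, and the single eIF5A pair with -0.37 in E21 libraries and -0.19 in numeric libraries. The remaining 5 roles had means between 0.02 and 0.27. Over all 1540 pairs of members it was 0.11 in E21 libraries and 0.09 in numeric libraries, and over all pairs of tested genes 0.03 in E21 libraries and 0.01 in numeric libraries. All genes of a library share its depth and total, and these means carry no test.

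The members on the X chromosome are Eif2s3, the gene of the gamma subunit of eIF2, and Eif1ax, named above. In mouse the X-linked gene of the gamma subunit is known to escape X inactivation, and it has a Y-linked counterpart, Eif2s3y. Xist, the RNA of the inactive X chromosome, fell into separate ranges, with 71 libraries at 0.932 CPM or less and 76 at 106 CPM or more. Eif2s3 had 88.0, 143 and 173 CPM as its lowest, median and highest levels in the 76 libraries above the gap, against 69.1, 91.3 and 110.1 CPM in the 71 libraries below it. The ranges overlapped between 88.0 and 110.1 CPM, and 5 of the 76 libraries above the gap and 48 of the 71 below it lay in that overlap. Those 5 were E21 libraries 2, 5, 20, 43 and 76. Library 20 is the one that also carried Eif2s3y. Libraries 2, 5, 43 and 76 had 80.0, 74.4, 103 and 92.6 CPM of Eif3a, against an E21 median of 161 CPM. The SD of log2(CPM + 1) of Eif2s3 was 0.173 above the gap and 0.131 below it, against 0.349 over all 147 libraries. Eif1ax had 41.5, 102 and 121 CPM above the gap, against 67.8, 98.6 and 118 CPM below it, so that the ranges coincided over most of their length. The division by Xist was read from the data and carries no test, and reads can be shared between Eif2s3 and Eif2s3y.

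**Figure D5:**
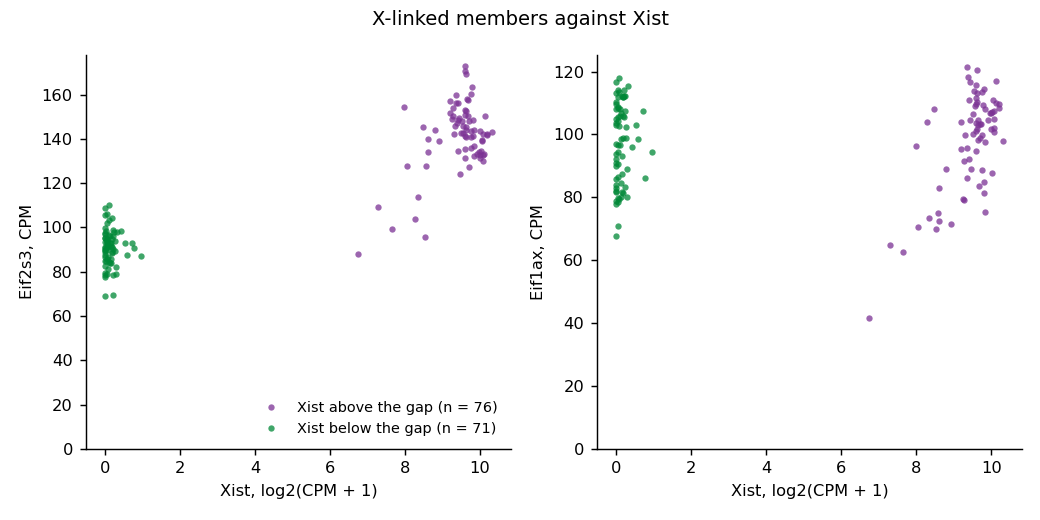
Eif2s3 (left) and Eif1ax (right) in CPM are plotted against Xist as log2(CPM + 1), with 1 point per library and the 76 libraries above the widest Xist gap in purple and the 71 below it in green. Eif2s3 has a median of 143 CPM in the purple points and 91.3 CPM in the green points, and Eif1ax overlaps between them.

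Libraries above the Xist gap numbered 5 of 12 in the corrected E21 group, 45 of 76 in the E21 group and 25 of 56 in the numeric group. Eif2s3 itself had 69.1, 126 and 160.2 CPM as its lowest, median and highest levels in E21 libraries, against 83.9, 106 and 173 CPM in numeric libraries. The groups overlapped over most of their length. Means were 116 ± 27.5 CPM in E21 libraries and 119 ± 28.6 CPM in numeric libraries (SD, n = 76 and 56), against the order of the medians, and the log2 difference of -0.03 did not pass (SE 0.061, limma adjusted p = 0.702). The fit had no term for the Xist side, which divided Eif2s3 levels and was unevenly shared between the groups. It therefore cannot show whether Eif2s3 differed between the groups within a side, which was not tested.

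Lists of related genes also held more lower than higher calls in the E21 libraries, as did all tested genes, with 26.6% lower and 12.3% higher. Of 20 other initiation proteins, 1 was higher (5.00%) and 6 were lower (30.0%), near the background, among them Abcf1, an ABC protein that binds eIF2, at 76.3 ± 13.1 CPM in E21 libraries and 88.8 ± 5.36 CPM in numeric libraries (SD, n = 76 and 56). Its log2 difference was -0.24 (SE 0.037, limma adjusted p = 2.91e-07), and -0.13 with library weights. Of 14 tested genes of the integrated stress response, which follows eIF2 alpha phosphorylation, 1 was higher and 5 were lower (35.7%). Atf4, its central transcription factor, averaged 118 ± 18.3 CPM in E21 libraries and 135 ± 20.3 CPM in numeric libraries (SD), a log2 difference of -0.20 (SE 0.038, limma adjusted p = 1.32e-05). That difference was -0.09 when the cortical score was a covariate (limma adjusted p = 0.0190). Of 15 genes of mTOR and MNK control, 2 were higher and 5 lower (33.3%), and of 14 elongation and termination factors 1 was higher and 6 were lower (42.9%). The median log2 difference was -0.04 for the other initiation proteins, -0.04 for the stress response, -0.05 for mTOR and MNK control and -0.04 for elongation and termination, against -0.03 for all tested genes. Between corrected and E21 libraries, 2 of the 20 initiation proteins were higher, Abcf1 and Larp1b, and 0 lower. That is 10.0% higher, where 9.34% of all tested genes were higher and 3.20% lower. Larp1b, a La-related protein, had a log2 difference of 0.45 (limma adjusted p = 0.00116), against 0.12 with the cortical score as a covariate (limma adjusted p = 0.194). Atf4 was higher at 149 ± 23.8 CPM in corrected libraries and 118 ± 18.3 CPM in E21 libraries (log2 difference 0.33, SE 0.067, limma adjusted p = 2.76e-04). It differed by 0.16 with the cortical score as a covariate (limma adjusted p = 0.0369) and by 0.15 with cortical, oligodendrocyte and astrocyte scores (limma adjusted p = 0.0552).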

How the data were processed

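PolyA RNA of the nucleus accumbens core was measured in 159 libraries of the deposited table; the labels list 192, of which 33 are marked as removed. Per the submitters' processing notes the quantifier was kallisto 0.48. Neither the annotation nor the build is given in the sources used here. Each deposited value is the log2 of (an expected count plus 1) for a gene, unscaled, as read from the values. Expected counts were recovered from them and scaled to 1000000 per library (CPM). Gene positions matched RefSeq GRCr8 for all 58 members. Near-identical copies can share pseudoaligned reads, strand is unknown, and levels are not scaled by length, so levels of different genes are not compared. Each library stands for 1 rat. Libraries correlated at 0.994 at most, and none were merged. Nothing in the labels shows separate extractions, so p-values measure the spread between these libraries.

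The analysis kept the 147 libraries with Drd1 of 100 CPM or more. Groups were compared on log2(CPM + 1) with limma 3.58.1 (R 4.3.3), using its moderated two-sided test with intensity trend and Benjamini-Hochberg adjustment over the 15327 genes averaging 1 CPM or more, in 1 fit of 144 libraries. This scale understates changes of low genes. limma was tested on simulated normal data, in which each gene had the same spread in every group and genes were independent. That simulation does not bear on the larger SD of the E21 libraries or on genes that move together. Spread was the SD of log2(CPM + 1), ranked among the 200 nearest genes in mean. Correlations had 100000 resamples. Other software was Python 3.11.15 with scipy 1.17.1, pandas 2.3.3, numpy 2.4.6 and matplotlib 3.10.9. By rule the text names all members past the threshold and the 5 members with the lowest and the 5 with the highest spread rank. Of the related lists, it names some genes of small p among other initiation proteins and the integrated stress response, and none of the other lists. Members, lists and preset pairs were chosen with earlier results of these data known. Alternatives were other scalings, pseudocounts, filters, library sets, covariates, neighbour numbers and library weights.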

Additional observations from a re-analysis of the deposited data

How the results depend on the processing

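Of 40 recalculated main counts and averages, 34 moved by less than 1.5 times or by less than the spread between roles, and 6 counts moved more. For E21 against numeric, 25 members passed, against 15 with the log2 total count as a covariate and 16 with library weights. Over all 15327 tested genes, 1878 were higher and 4072 lower, against 842 and 2449 with the total count and 1550 and 2866 with weights. For corrected E21 against E21, 5 passed, against 2 with all labelled libraries, 8 with the cortical score as a covariate, 3 with cortical, oligodendrocyte and astrocyte scores and 9 with library weights. Over all tested genes, 1432 were higher and 491 lower in this comparison. These counts were 633 and 131 with all labelled libraries and 1839 and 422 with the cortical score. They were 641 and 147 with the 3 scores and 2280 and 1413 with weights. Without E21 library 5, 23 and 6 passed in the 2 comparisons. All tested genes then had 1884 higher and 3816 lower for E21 against numeric, and 1426 and 506 for corrected E21 against E21. The number of members in the lowest 10% of spread was 12 and ranged from 8 to 15. Eif4e1b changed sign from -0.14 to 0.004 with the cortical score and 0.005 with the 3 scores, Eif6 to -0.006 with library weights, and Gigyf2, another initiation protein, from -0.11 to 0.001 with library weights. The cause was not tested. Of recalculated single-gene results, 670 kept their side of the threshold or their rank, 106 weakened, 5 moved and 4 changed sign. Of single-pair results, 41 kept their side, 2 weakened and 5 strengthened. Of counts in 1 direction and median ranks, 47 held and 14 moved. No paired analysis was possible because the labels give the groups no shared replicate numbers. Depth of 14.6 to 61.2 M expected counts limits statements on the members below 1 CPM.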
